A study of Mus musculus with 6 samples.

Results

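The genes described here encode the carriers and pumps that move organic anions, organic cations, carnitine, urate, prostaglandins and many drugs across cell membranes. Their members are all rows of the count table whose symbol belongs to the Slc22, Slco, Slc47 or Abcc families, or is Abcb1a, Abcb1b or Abcg2. That gave 50 of 26971 rows: 23 of Slc22, 12 of Slco, 2 of Slc47, 10 of Abcc, 2 of Abcb1 and Abcg2. The libraries are bulk RNA of renal cortex, taken from male C57BL/6 mice 1 day after surgery: 3 of IRI and 3 of IRI with IVCC, the congestion group of the series, called congested IRI here. In an IRI model, ischaemia of the kidney is followed by reperfusion. Both groups carry the injury, and no uninjured kidney is compared here, so every difference is between 2 kinds of injured kidney. The labels give neither the age of the mice nor the length of ischaemia, do not spell out IVCC or the CLK in the titles of the IRI libraries, and do not say whether each library came from its own mouse, so p-values measure the spread between these libraries.

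The proximal tubule clears drugs and metabolic waste in 2 steps. Carriers of the basolateral membrane (OAT1 and OAT3, encoded by Slc22a6 and Slc22a8, for anions, and OCT2, encoded by Slc22a2, for cations) take solutes up from the blood. Apical exporters (MATE1 from Slc47a1 for cations, and the ATP-driven pumps MRP2 and MRP4 from Abcc2 and Abcc4, P-glycoprotein from Abcb1a and Abcb1b and BCRP from Abcg2) release them into the urine. Other members work in the reverse direction, such as URAT1 (Slc22a12), which reclaims urate, and OCTN2 (Slc22a5), which reclaims carnitine. These carriers set how long many drugs stay in the body, and their uptake routes are a known path by which nephrotoxic drugs enter tubule cells.

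Total counts per library ranged from 10865860 to 14350425, and the 50 transporter genes took 0.508% to 0.773% of them. All 10 markers of the S1 and S2 segments of the proximal tubule and all 8 of the S3 segment were detected. So were all 8 markers of thick limb, distal tubule and collecting duct, and all 5 podocyte markers, whose summed level was 279.6 to 352 CPM. Detection of these markers cannot tell cortex from whole kidney, so it does not test the label. CPM here is the usual depth-scaled count, after TMM scaling for library composition. Both libraries numbered 1 stood apart from the other 4. The 12 markers of tubular injury summed to 48416 CPM in IRI replicate 1 and 65673 CPM in congested replicate 1, against 6562 to 18606 CPM elsewhere. Most of these sums was Spp1, at 40232 CPM in IRI replicate 1 and 59298 CPM in congested replicate 1. The S1 and S2 markers summed to 3207 and 3437 CPM in the libraries numbered 1, against 7085 to 8336 CPM elsewhere. The 9 leukocyte markers summed to 137 and 439.6 CPM in the libraries numbered 1 and to 58.5 to 88.6 CPM in the others. Of the 7 tested, only 3 (Lyz2, S100a8 and S100a9) lay higher in both libraries numbered 1 than in all others. Csf1r was lowest in IRI replicate 1, at 15.3 CPM against 21.4 to 47.8 CPM elsewhere. Of the 9 leukocyte markers Cd3e was at 0 in 4 libraries. All 6 libraries were kept. Values without 1 library are given for named genes whose estimate then changed sign, and for some other results.

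Per kilobase of exon, the scale on which genes can be compared with each other, abundant members included the genes of apical URAT1 and basolateral OAT1. Slc22a12 stood at 415 CPM per kilobase averaged over the 6 libraries and Slc22a6 at 302. Slc22a18, an imprinted gene of the family, stood at 131, the apical cation exporter gene Slc47a1 at 106 and Slc22a2 (OCT2) at 93.00. Among the ATP-driven pumps Abcg2 led at 82.5 and Abcc2 stood at 58.8 CPM per kilobase. Both P-glycoprotein genes were far lower, Abcb1b at 4.08 and Abcb1a at 1.81 CPM per kilobase. Exon length is the merged length of all annotated exons, so genes with long, little-used exons are placed too low. Of the 50 members 42 reached 10 counts in at least 3 libraries and were tested. The 8 that did not were Slc22a3, Slc22a27, Slc47a2, Slco1a5, Slco1c1, Slco5a1, Abcc8 and Abcc12, with 0 to 12 counts per library and 1 to 52 in all 6 libraries together. A count of 0 in a library allows a level of up to 0.22 to 0.269 CPM, counting error only. OCT3 (Slc22a3) was detected at a low level, with 5 to 12 counts in each library. MATE2 (Slc47a2), with 0 to 3 counts, was near or below the detection limit. Both were far below their relatives OCT2 and MATE1.

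The central comparison asked how congestion changes the injured kidney. No transporter gene passed the threshold of an adjusted p under 0.05: edgeR's quasi-likelihood test called 0 of 42 members, beside 0 of 14398 genes tested (0%). At an unadjusted p under 0.05 it had 0 members, where 2% of all tested genes lay (0.979% higher and 1.02% lower in congested IRI). DESeq2 and limma-voom also called 0 members, and each had 0 at an unadjusted p under 0.05 (2.47% and 2.01% of all genes). The numbers 1 to 3 are shared by both groups in the labels. Correlations between libraries set number 1 apart but do not tell numbers 2 and 3 from each other. Pairs 2 and 3, and the fits that use them, thus rest on the labels' numbers alone. With the replicate number as a block, which compares libraries of equal number, edgeR again called 0 of 42 members beside 0% of all genes, and 5 members had an unadjusted p under 0.05 (11.9%, against 7.05% of all genes). These were Slc22a7, Slc22a19 and Slc22a13, lower in congested IRI (3 members, against 2.99% of all genes), and Abcc4 and Abcc1, higher (2 members, against 4.06%). With the block DESeq2 called 0 members and 8 of all genes (0.0556%), and limma-voom called 0 of either. At an unadjusted p under 0.05 these had 3 members (against 6.81% of all genes) and 5 members (against 7.36%). In the block fit without both libraries numbered 3, which leaves 4 libraries and 1 residual degree of freedom, edgeR called 15 members and 5487 genes; without those numbered 1 or 2 it called 0 members.

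By direction the families differed from each other, as a description. Of the 42 tested members 17 (40.5%) lay above 0 and 25 below, where 49.7% of all tested genes lay above 0, and the members' median log2 fold change was -0.06. With libraries scaled to total counts, which moved the median of all genes to 0.10, 24 of 42 lay above 0 and the members' median was 0.03. In Slc22 4 of 21 lay above 0 with a median of -0.11, or 9 of 21 with total counts, whereas in Abcc 8 of 8 lay above 0 with a median of 0.37. In Slco 3 of 9 lay above 0 with a median of -0.14, and both Abcb1 genes lay above 0. The members of a family are not replicates of congestion, since all were read from the same 6 libraries. These counts also turn on single libraries. Without IRI replicate 3 the number of members above 0 was 29 of 42 (11 in Slc22 and 8 in Slco), and without congested replicate 1 it was 27 (12 in Slc22 and 5 in Slco). Without IRI replicate 2, 10 Slc22 members lay above 0. The Abcc count dropped to 5 of 8 without IRI replicate 1 and to 5 of 8 without congested replicate 2. Cell type markers also differed in direction, and edgeR called none for congestion. Above 0 lay 1 of 8 S3 markers (median -0.34) and 0 of 8 of thick limb, distal tubule and collecting duct (-0.44). For S1 and S2 it was 9 of 10 (0.09), for injury 5 of 12 (-0.06) and for podocytes 5 of 5 (0.11). All 7 tested leukocyte markers lay above 0 (median 1.05). The part of these markers in the transporter estimates was not tested.

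**Figure D1:**
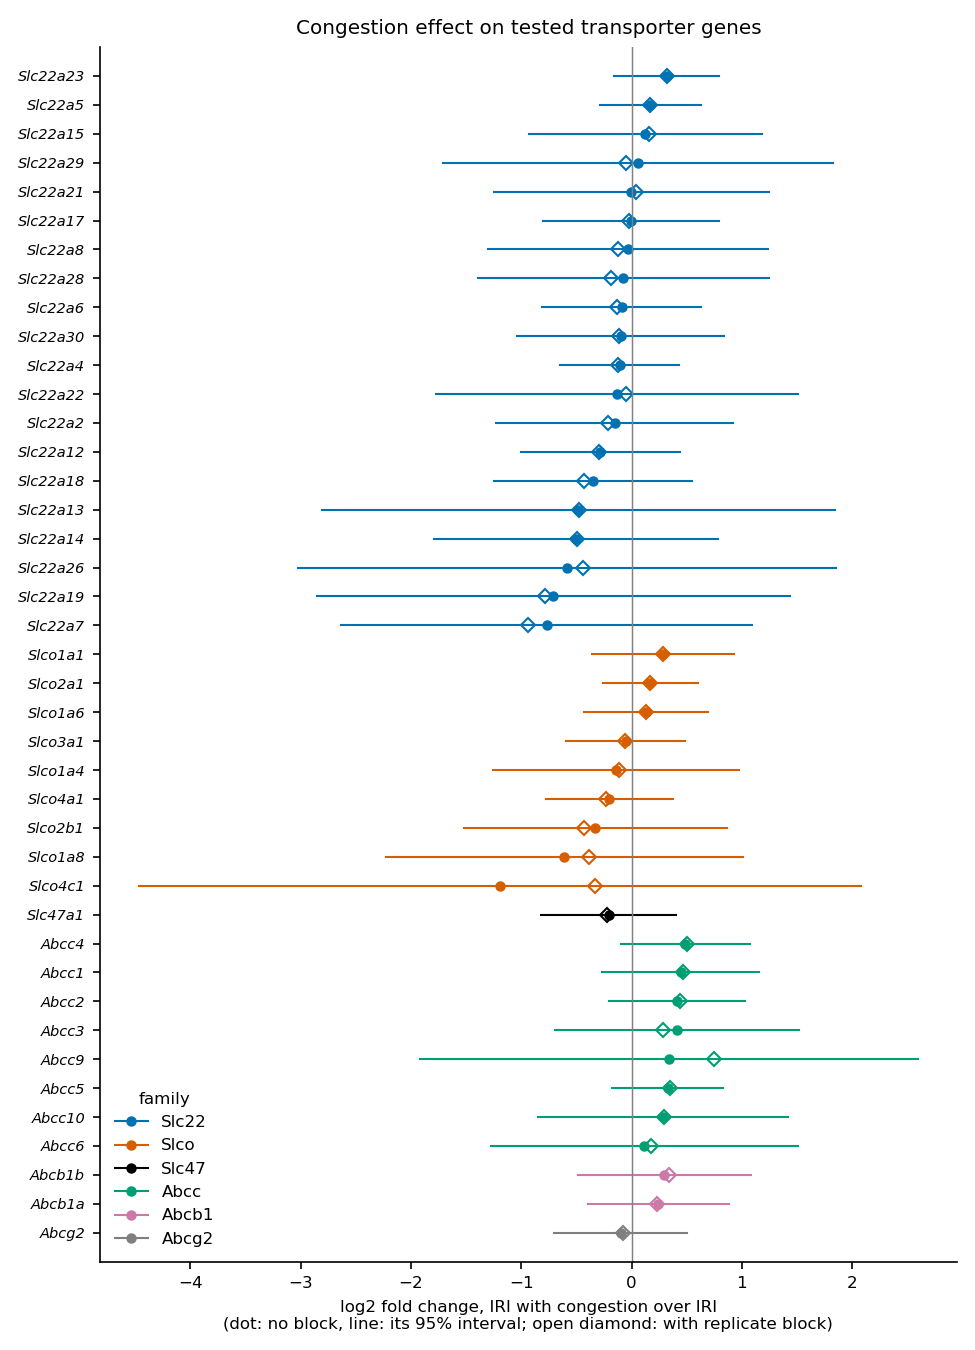
Log2 fold change of congested IRI over IRI (horizontal axis) for the tested genes reported here, grouped by family. Dots and lines give the estimate without the replicate block and its 95% interval, open diamonds the estimate with the block. Every line crosses 0, the Abcc dots lie to the right of 0, and the intervals of Slco4c1, Slc22a13, Slc22a19 and Slc22a26 are among the widest.

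More transporters were called for the replicate number than for congestion. In a model with group and replicate number, edgeR called 14 of 42 members (33.3%) for the replicate number at an adjusted p under 0.05, beside 7.94% of all genes tested, with adjusted p from 0.00138 to 0.0412. In all 14, both libraries numbered 1 lay below the other 4; of all tested genes 4.05% were both called and ordered in this way. Over all tested members this held for 24 of 42 (57.1%, against 19.8% of all genes), and the reverse, both libraries numbered 1 above the others, for 4 of 42 (9.52%, against 18.3%): Abcg2, Slco1a6, Slc22a15 and Slc22a21. The called members were Slc22a2, Slc22a7, Slc22a8, Slc22a13, Slc22a19, Slc22a22, Slc22a26, Slc22a28, Slc22a29, Slc22a30, Slco2b1, Slco4c1, Abcc6 and Abcc10. Of these Slc22a26, Slc22a29, Slco2b1 and Abcc6 are named because of this call. The labels do not say what a number shares. Most injury markers were high and most S1 and S2 markers low in the libraries numbered 1. Both of these libraries lay above the rest for 11 of 12 injury markers and below the rest for 7 of 10 S1 and S2 markers. The S1 and S2 markers Slc4a4, Slc6a19 and Slc5a12 were not ordered in this way. For the replicate number 11 of the 12 injury markers, 6 of the 10 S1 and S2 markers and 5 of the 8 S3 markers were called too. So were 4 of the 8 markers of thick limb, distal tubule and collecting duct. These 8 summed to 2027 and 2034 CPM in the libraries numbered 1, against 3913 to 6932 CPM elsewhere. The part of all these markers in the transporter result was not tested. In whole-cortex RNA fewer tubule cells and less transporter RNA per cell cannot be told apart. Leaving out IRI replicate 3 gave 29 called members, beside 5234 of all 14398 genes, and leaving out congested replicate 3 gave 33, beside 7877 genes. Leaving out each of the other libraries gave 10 to 17 members, beside 845 to 1609 genes. Each of these fits has 1 residual degree of freedom.

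**Figure D2:**
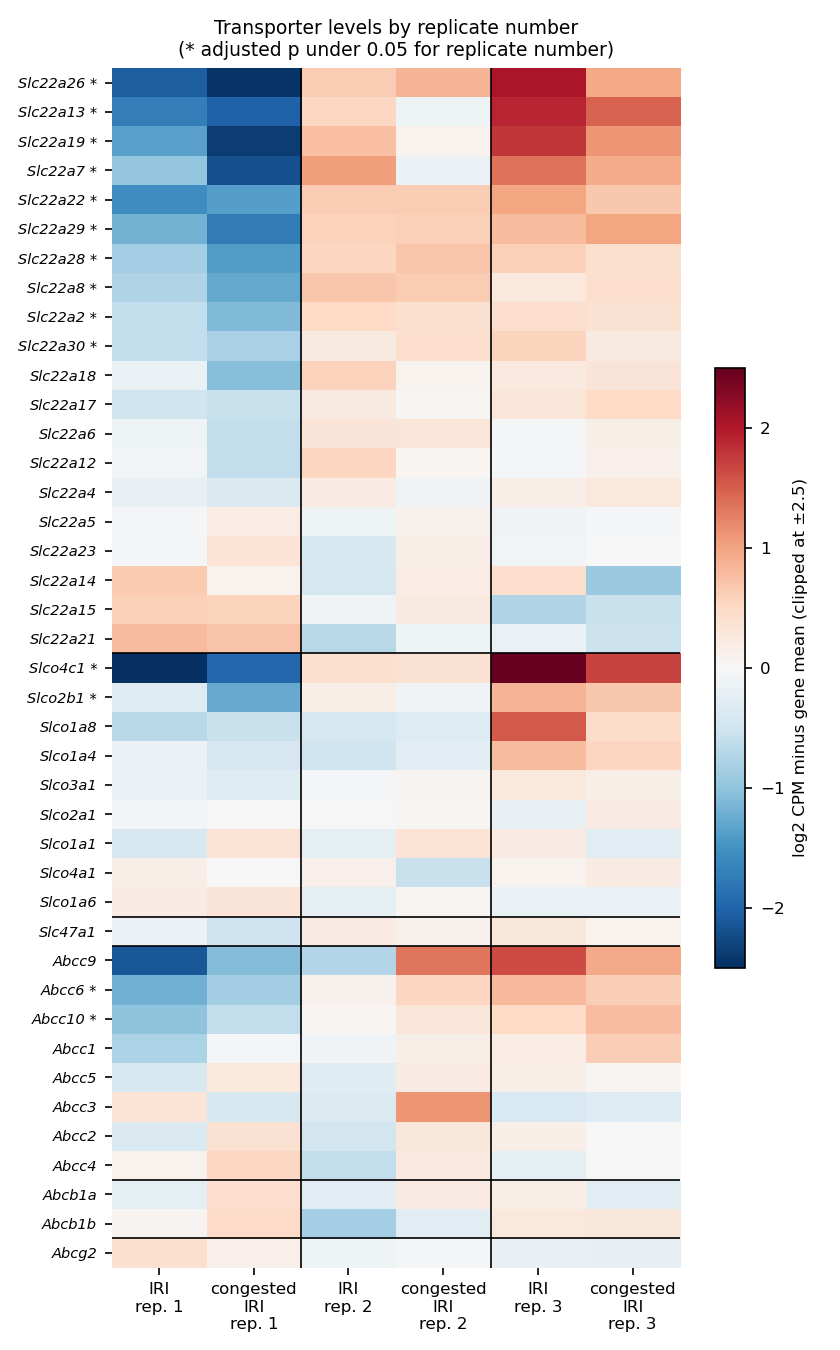
Each row is a tested gene reported here and each column a library, ordered by replicate number. Colour is the log2 CPM minus the gene's mean over the 6 libraries, from blue (low) to red (high), and a star marks the 14 genes called for the replicate number. Both columns numbered 1 are blue for most Slc22 genes, while Abcg2, Slco1a6, Slc22a15 and Slc22a21 are red there.

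OAT1 and OAT3, the classical basolateral uptake carriers for organic anions, are encoded by neighbouring genes on the plus strand of chromosome 19 (GRCm38), Slc22a8 from 8591254 to 8611835 and Slc22a6 from 8618039 to 8628299. Slc22a6 stood at 1095, 1468 and 1153 CPM in IRI replicates 1, 2 and 3 and at 763, 1439 and 1292 CPM in the congested replicates. Congested replicate 1 was the lowest library, and the groups overlapped. Its log2 fold change was -0.09 (95% interval -0.81 to 0.63), at an edgeR adjusted p of 0.969. That fold change was 0.02 with total-count scaling, 0.05 without IRI replicate 2 and 0.14 without congested replicate 1. Slc22a8 stood at 147, 405 and 297 CPM in IRI and 102, 388 and 340.2 CPM in congested IRI. Here both libraries numbered 1 were low, and the group means of 283 ± 129 and 277 ± 153 CPM (SD, n = 3) were nearly equal, with a log2 fold change of -0.03 (95% interval -1.30 to 1.24) that was 0.07 with total-count scaling. Replicates 2 and 3 held 3.18 and 2.55 times the level of replicate 1, averaged over both groups (edgeR adjusted p for the replicate number = 0.0194). For Slc22a6 the same ratios were 1.56 and 1.32, at an edgeR adjusted p of 0.28. So of these neighbours OAT3 passed the test for the replicate number and OAT1 did not; the difference between them was not tested.

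Most other organic anion transporter genes of Slc22 lie close by. Of the 23 members of the family 9 lie on chromosome 19 between 6535845 and 8628299. Of the 8 tested there 6 were called for the replicate number and all 8 had both libraries numbered 1 below the rest, against 4 and 8 of the other 13 Slc22 genes and 7.94% and 19.8% of all tested genes. Slc22a12, which encodes the apical urate carrier URAT1, stood at 869, 1331 and 892 CPM in IRI and 592, 945 and 1003 CPM in congested IRI. IRI replicate 2 was the highest library and congested replicate 1 the lowest. Its log2 fold change was -0.28 (95% interval -1.005 to 0.44, edgeR adjusted p = 0.935), and the replicate number was not called (0.306). Exons of Slc22a12 overlap Nrxn2 on the other strand, and whether reads were counted by strand is not given in the sources used here.

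Slc22a28 and Slc22a30 encode organic anion carriers of the rodent cluster, and their counts are uncertain because 53.9% and 34.2% of the 50-base words of their transcripts also occur in another gene, most often each other. Slc22a28 stood at 35.6, 92.6 and 96.1 CPM in IRI and 24.3, 104 and 84.7 CPM in congested IRI. Slc22a30 stood at 52.1, 93.6 and 118 and 45.3, 108 and 93.2 CPM. Both were low in the libraries numbered 1 of both groups (edgeR adjusted p for the replicate number = 0.0127 and 0.0411) and nearly equal between groups, with log2 fold changes of -0.08 and -0.10, the former 0.01 with total-count scaling.

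Low estimates for congestion among the anion carriers came from genes that also varied widely between replicate numbers. Not all of these were lower in every pair. Slc22a26, at a log2 fold change of -0.59, had pair differences of -0.40, 0.23 and -1.08. Slc22a7, which encodes OAT2, stood at 19.5, 80.7 and 99.6 CPM in IRI replicates 1, 2 and 3 and 8.34, 35.01 and 73.7 CPM in the congested replicates. The congested library was the lower one within each number, with log2 differences of -1.21, -1.20 and -0.43, yet the groups overlapped, with replicate 1 lowest in both. The log2 fold change was -0.77 (standard error 0.80, edgeR adjusted p = 0.935), and with the replicate block -0.94 (standard error 0.22, unadjusted p = 0.0026, edgeR adjusted p = 0.578). Without the block it was -0.29 when congested replicate 1 was left out and -1.61 when congested replicate 3 was, and lay between these without each other library. Slc22a19, which encodes the anion carrier OAT5, stood at 15.8, 68.5 and 141 CPM in IRI and 7.72, 42.9 and 86.9 CPM in congested IRI. Again the congested library was lower in each pair, with differences of -1.02, -0.67 and -0.69. Between unequal numbers this did not always hold: congested replicate 3 (86.9 CPM) lay above IRI replicate 2 (68.5 CPM). The blocked log2 fold change of Slc22a19 was -0.79 (standard error 0.18, unadjusted p = 0.00259, edgeR adjusted p = 0.578), against -0.71 (standard error 0.92) without the block. Slc22a13, which encodes OAT10, a carrier of urate and nicotinate, stood at 6.91, 33.7 and 88.1 and 5.65, 21.3 and 65.05 CPM. The pairs differed by -0.28, -0.66 and -0.44, and the blocked log2 fold change was -0.48 (standard error 0.19, unadjusted p = 0.0352, edgeR adjusted p = 0.578). For Slc22a13 too, congested replicate 3 (65.05 CPM) lay above IRI replicate 2 (33.7 CPM). Without the block and without IRI replicate 3, the estimates were 0.12 for Slc22a19 and 0.60 for Slc22a13. Slc22a13 shares 36.01% of its 50-base words with other genes, most often with the pseudogene Slc22a13b-ps.

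Across replicate numbers these carriers spanned a wide range. Averaged over both groups, replicate 3 held 12.2 times the level of replicate 1 for Slc22a13, 9.66 times for Slc22a19 and 6.23 times for Slc22a7, with edgeR adjusted p for the replicate number of 0.00138, 0.00165 and 0.00452. Slc22a22, which encodes a prostaglandin carrier of the same family, stood at 15.7, 72.4 and 92.5 CPM in IRI and 17.8, 72.1 and 74.8 CPM in congested IRI. It was called for the replicate number (edgeR adjusted p = 0.00408) and not for congestion, with pair differences of 0.18, -0.0048 and -0.31 and a blocked log2 fold change of -0.05 (95% interval -0.48 to 0.38). In all, 9 of the 11 tested organic anion carriers were called for the replicate number, every one except Slc22a6 and Slc22a12, beside 7.94% of all genes. All 11 had both libraries numbered 1 below the rest, beside 19.8% of all genes.

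**Figure D3:**
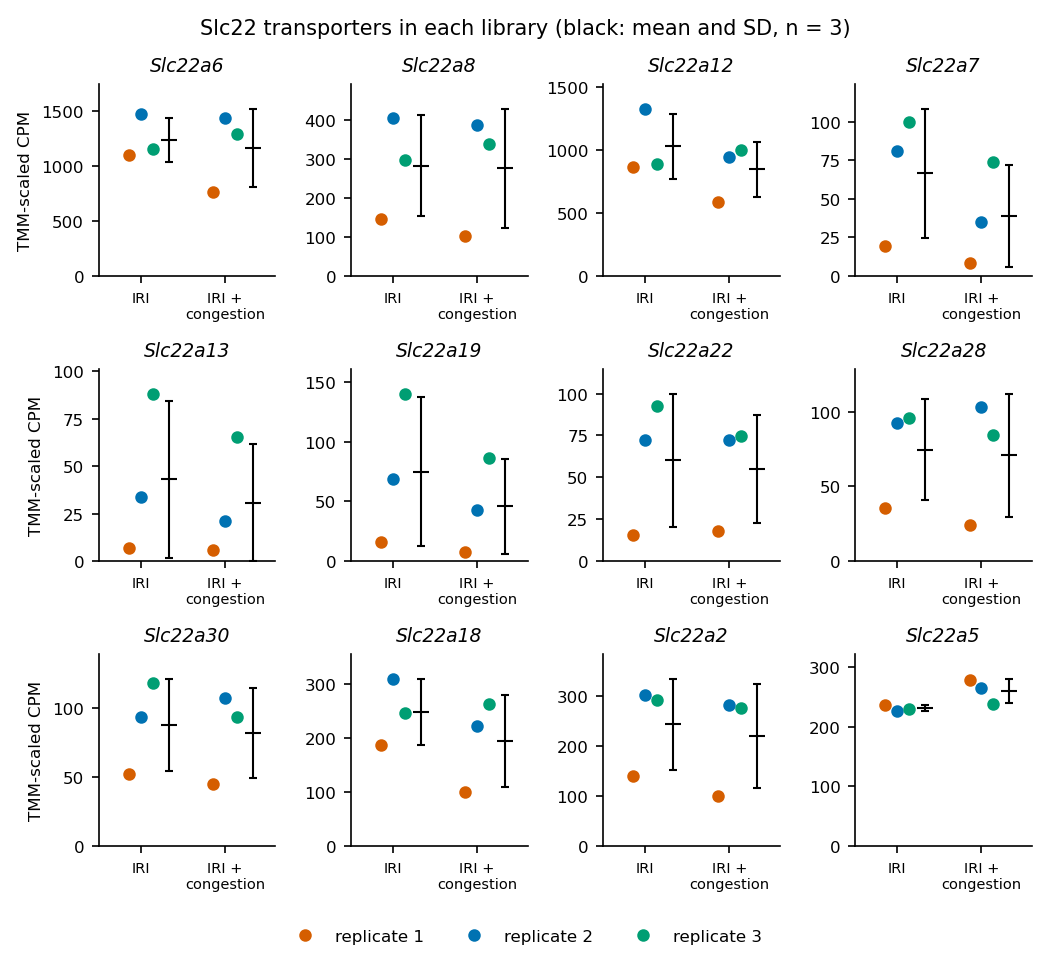
TMM-scaled CPM (vertical axes, from 0) of 12 Slc22 genes in each library, by group (horizontal axis), coloured by replicate number, with the mean and SD of each group in black. Replicate 1 is the lowest library of its group in 11 panels and is not so for Slc22a5, where the 3 congested libraries lie above the 3 IRI libraries.

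The organic cation route pairs a basolateral carrier with an apical exporter, and neither gene passed the test for congestion. Slc22a2, which encodes OCT2, the main basolateral cation carrier of the kidney, stood at 139, 300.5 and 290.1 CPM in IRI and 99.3, 281 and 275 CPM in congested IRI. Both libraries numbered 1 were low (edgeR adjusted p for the replicate number = 0.0271), and the pairs differed by -0.48, -0.09 and -0.07. For congestion its log2 fold change was -0.15 (edgeR adjusted p = 0.965) and changed sign with IRI replicate 2 left out (0.03) or congested replicate 1 left out (0.19). The apical partner of OCT2 is MATE1, from Slc47a1, which stood at 316, 406 and 428 CPM in IRI and 246, 377 and 372 CPM in congested IRI. It was lower in the congested library of every pair (-0.36, -0.11 and -0.20), with a log2 fold change of -0.21 (95% interval -0.82 to 0.40, edgeR adjusted p = 0.935). That fold change was -0.03 without congested replicate 1. Over all members 6 were lower in all 3 pairs (14.3%, against 13.1% of all genes): Slc22a2, Slc22a7, Slc22a13, Slc22a19, Slc47a1 and Slco2b1. That share is near the background.

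Among the carnitine carriers and the remaining Slc22 genes none passed the test for congestion. Slc22a5, which encodes the carnitine carrier OCTN2, stood at 237, 227 and 231 CPM in IRI and 279, 265 and 238 CPM in congested IRI. The groups did not overlap, but the shift was small, with a log2 fold change of 0.17 (95% interval -0.29 to 0.63, edgeR adjusted p = 0.935). Of the 50-base words of Slc22a5 26.2% also occur in other genes, most often in its neighbour Slc22a21. Slc22a23, a family member without an agreed substrate, stood at 67.9, 52.7 and 66.4 and 87.3, 77.3 and 68.4 CPM, likewise without overlap, with a log2 fold change of 0.32 (95% interval -0.16 to 0.79, edgeR adjusted p = 0.935). The third member without overlap was Slco2a1, described with its family. Such members were 3 of 42 (7.14%), all higher in congested IRI, where 3.38% of all genes were higher and 3.1% lower without overlap (6.49% in either direction). Slc22a18 stood at 187, 311 and 248 CPM in IRI and 99.9, 222 and 264 CPM in congested IRI. Congested replicate 1 was the lowest library, and the log2 fold change of -0.35 (edgeR adjusted p = 0.935) was -0.03 without it.

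Among the Slco genes, which encode sodium-independent carriers of bile acids, steroid conjugates, thyroid hormone and drugs, abundant members varied little and Slco4c1 varied most. Slco1a1, an apical organic anion carrier of the mouse proximal tubule, stood at 183, 204 and 279 CPM in IRI and 309, 304 and 199 CPM in congested IRI. The congested library was higher in pairs 1 and 2 and lower in pair 3 (0.75, 0.57 and -0.49), and the log2 fold change was 0.28 (95% interval -0.36 to 0.93, edgeR adjusted p = 0.935). Slco1a6, of the same cluster on chromosome 6, stood at 316, 231 and 243 and 339.8, 284 and 242 CPM. In each group replicate 1 was its highest library, and its log2 fold change was 0.13 (edgeR adjusted p = 0.944), and -0.0014 without congested replicate 1. Slco3a1, a widely expressed member, stood at 201, 221 and 271 and 182, 235 and 250.3 CPM, with a log2 fold change of -0.05 that was 0.04 with total-count scaling.

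Slco2a1, which encodes the prostaglandin transporter, stood at 92.02, 97.3 and 85.7 CPM in IRI and 97.6, 99.02 and 112 CPM in congested IRI. The groups did not overlap, though IRI replicate 2 and congested replicate 1 were nearly equal. Its log2 fold change was 0.17 (95% interval -0.26 to 0.60, edgeR adjusted p = 0.935). Slco4c1, which encodes OATP4C1, a basolateral carrier of digoxin and thyroid hormone, stood at 0.556, 12.8 and 93.3 CPM in IRI replicates 1, 2 and 3 and 2.33, 12.6 and 31.5 CPM in the congested replicates. It was close to the detection limit in IRI replicate 1, with 7 counts against 1056 in IRI replicate 3. The replicate number was called (edgeR adjusted p = 0.0097), and the pairs differed by 1.79, -0.02 and -1.56. The log2 fold change for congestion was -1.20 with a standard error of 1.40 (edgeR adjusted p = 0.935). That fold change was 1.22 without IRI replicate 3 and 0.25 by limma-voom.

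The highest estimates for congestion belonged to genes of ATP-driven MRP pumps of the Abcc family, but not all such genes were high. Abcc6 was at a log2 fold change of 0.12, below Slc22a23 at 0.32. Abcc3, at 0.41, had pair differences of -0.73, 1.45 and 0.07. It stood at 15.2 CPM in congested replicate 2, against 5.29 to 8.90 CPM elsewhere. Abcc2, which encodes the apical pump MRP2, lies on the plus strand of chromosome 19 from 43782192 to 43840740 and stood at 382, 355 and 553 CPM in IRI and 637, 599 and 484 CPM in congested IRI. Congested replicates 1 and 2 were the highest libraries, and IRI replicate 3 lay above congested replicate 3. The means were 429.9 ± 107 and 573 ± 79.4 CPM (SD, n = 3), with a log2 fold change of 0.41 (95% interval -0.20 to 1.03, edgeR adjusted p = 0.935). Abcc4, which encodes the apical anion and cyclic nucleotide pump MRP4, stood at 58.4, 35.7 and 46.5 CPM in IRI and 78.5, 64.5 and 54.1 CPM in congested IRI. It was higher in the congested library of each pair, by 0.43, 0.85 and 0.22, and had the smallest unadjusted p of all members without the block (0.0905 in edgeR; adjusted p = 0.935). Its log2 fold change was 0.49 (95% interval -0.10 to 1.07), and 0.50 with the block (standard error 0.20, unadjusted p = 0.0336, edgeR adjusted p = 0.578).

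Abcc1, which encodes the basolateral pump MRP1, stood at 15.1, 24.9 and 29.9 CPM in IRI and 25.4, 29.3 and 40.4 CPM in congested IRI. The congested library was again the higher one in each pair, by 0.74, 0.23 and 0.43, with a blocked log2 fold change of 0.47 (standard error 0.19, unadjusted p = 0.0415, edgeR adjusted p = 0.578). Abcc5, which encodes the cyclic nucleotide pump MRP5, stood at 27.5, 29.4 and 40.6 and 43.5, 41.7 and 37.2 CPM. IRI replicate 3 lay above congested replicate 3, and the log2 fold change was 0.33 (95% interval -0.18 to 0.83, edgeR adjusted p = 0.935). Abcc10, which encodes MRP7, stood at 3.42, 7.26 and 9.98 and 4.49, 8.64 and 12.01 CPM and was called for the replicate number (edgeR adjusted p = 0.039), with both libraries numbered 1 lowest. For congestion its log2 fold change of 0.29 (edgeR adjusted p = 0.942) turned to -0.03 when IRI replicate 1 was left out and to -0.06 when congested replicate 3 was.

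For the genes of P-glycoprotein and BCRP, the differences between the groups were within the spread of the libraries. Abcb1a stood at 8.34, 8.02 and 10.9 CPM in IRI and 13.1, 11.2 and 7.92 CPM in congested IRI. Abcb1b, the P-glycoprotein gene with the higher level here, stood at 32.7, 17.3 and 37.8 and 43.8, 26.1 and 38.1 CPM. Within numbers Abcb1a differed by 0.64, 0.47 and -0.45 and Abcb1b by 0.42, 0.58 and 0.01, so only Abcb1b was higher in all 3 congested libraries, by almost nothing in the third. Their log2 fold changes were 0.24 (95% interval -0.40 to 0.88) and 0.30 (95% interval -0.48 to 1.08), each at an edgeR adjusted p of 0.935. The genes share 17.6% and 11.6% of their 50-base words with other genes, most often each other, and exons of both overlap a gene on the other strand. Abcg2, whose product BCRP exports urate and many drugs, stood at 882, 619 and 585 CPM in IRI and 722, 652 and 576 CPM in congested IRI, on the plus strand of chromosome 6 from 58584523 to 58695676. In each group replicate 1 was the highest library, opposite to the anion carriers. Its log2 fold change was -0.10 (95% interval -0.70 to 0.50, edgeR adjusted p = 0.96), and it was 0.02 with total-count scaling and 0.11 without IRI replicate 1. The replicate number was not called for it (edgeR adjusted p = 0.407).

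**Figure D4:**
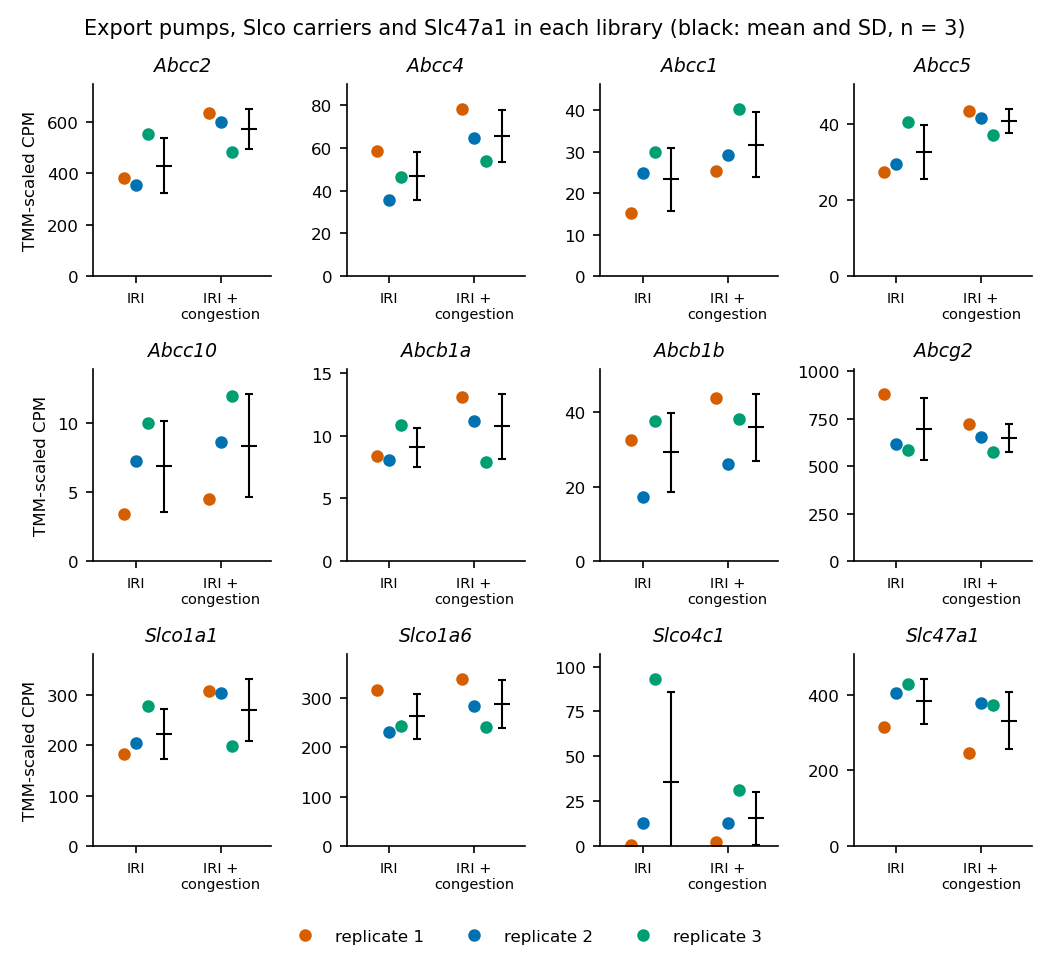
TMM-scaled CPM (vertical axes, from 0) of export pumps, Slco carriers and Slc47a1 in each library, by group, coloured by replicate number, with the mean and SD in black; the bar of Slco4c1 in IRI is cut at 0. The congested libraries numbered 1 and 2 are the highest for Abcc2, Abcc4 and Abcc5, and Abcg2 and Slco1a6 are highest in replicate 1 of each group.

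Within equal replicate numbers the families moved differently in each pair. The Slc22 median difference was -0.48 in pair 1, -0.03 in pair 2 and 0.02 in pair 3, with 3, 9 and 11 of 21 members above 0. The Abcc median was 0.54 in pair 1, 0.63 in pair 2 and -0.03 in pair 3, with 7, 8 and 4 of 8 members above 0. These counts describe the libraries; Abcc here includes Abcc9, a channel subunit and not a pump, and Abcg2, the most abundant pump gene per kilobase, differed by -0.29, 0.08 and -0.02. Over all tested genes the medians were 0.0047, 0.0081 and -0.0016. Of the members 7 (16.7%, against 13.1% of all genes) were higher in all 3 pairs: Abcb1b, Abcc1, Abcc4, Abcc10, Slc22a5, Slc22a23 and Slco2a1. The level summed over Slc22 was 3303, 5150.2 and 4335 CPM in IRI replicates 1, 2 and 3 and 2409.6, 4474 and 4477 CPM in the congested replicates, and that summed over Abcc was 498, 466 and 707 against 798, 776 and 649 CPM.

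**Figure D5:**
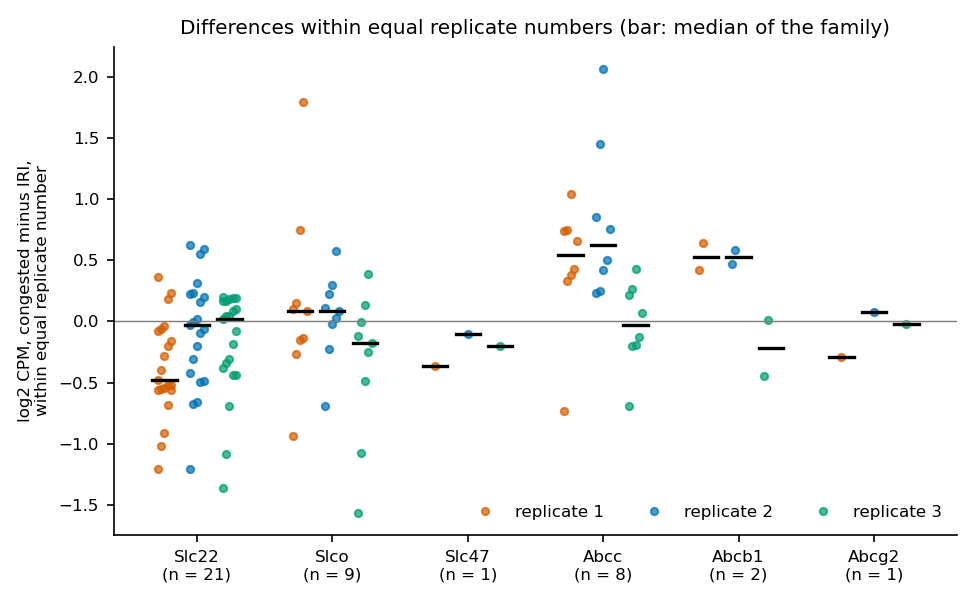
Difference in log2 CPM, congested IRI minus IRI, within equal replicate numbers (vertical axis) for each tested member by family (horizontal axis, number of members in brackets). Black bars mark the medians. The Abcc medians are 0.54 and 0.63 in replicates 1 and 2 and -0.03 in replicate 3, and the Slc22 medians -0.48, -0.03 and 0.02.

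A further 14 tested members had mean levels of 0.807 to 49.2 CPM and log2 fold changes of -0.61 to 0.41, 5 above and 9 below 0, at edgeR adjusted p of 0.935 to 0.999. Of these Slc22a26, an anion carrier gene of the chromosome 19 cluster, stood at 1.59, 11.1 and 29.9 CPM in IRI and 1.17, 13.04 and 14.04 CPM in congested IRI (edgeR adjusted p for the replicate number = 0.00485). Slc22a29, of the same cluster, stood at 1.27, 4.69 and 5.48 and 0.808, 4.76 and 6.28 CPM (0.0178), and 28.6% of its 50-base words occur in other genes. Slco2b1 stood at 7.71, 10.7 and 17.6 and 3.95, 9.08 and 15.5 CPM (0.0401), and Abcc6 at 1.75, 4.61 and 7.60 and 2.24, 6.23 and 6.59 CPM (0.0355). Each of these was lowest in the libraries numbered 1 of both groups. Slc22a4, which encodes the zwitterion carrier OCTN1, was the most abundant of the 14 and is named after its values were seen, at 42.4, 56.2 and 54.4 CPM in IRI and 37.95, 45.6 and 58.5 CPM in congested IRI, with a log2 fold change of -0.11 (95% interval -0.65 to 0.43). The other 9 were Abcc3, Abcc9, Slc22a14, Slc22a15, Slc22a17, Slc22a21, Slco1a4, Slco1a8 and Slco4a1.

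Genes that work with these transporters were described from lists chosen with earlier results of these data known, and edgeR called none of their genes for congestion with or without the block. Partner genes that supply the ion and dicarboxylate gradients or hold carriers in the membrane had 4 of 10 members above 0 and a median log2 fold change of -0.10. In that list Fxyd2, a regulator of the sodium pump, stood at 2141, 2735 and 1494 CPM in IRI and 1478, 1307 and 1649 CPM in congested IRI (log2 fold change -0.52, edgeR adjusted p = 0.935), and Pdzk1ip1, a partner of the apical scaffold PDZK1, had a log2 fold change of -0.43 (edgeR adjusted p = 0.935). Other solute, peptide, nucleoside and urate transporters had 8 of 20 above 0 and a median of -0.09. The smallest p-values there belonged to the lactate carrier gene Slc5a12 (52.3, 114 and 212 against 142, 275 and 235 CPM, log2 fold change 0.79, edgeR adjusted p = 0.935) and the peptide carrier gene Slc15a2 (log2 fold change -0.59, edgeR adjusted p = 0.935).

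Transcription factors known to act on transporter genes had 11 of 15 above 0 and a median of 0.17. Ppara, the lipid-sensing receptor, stood at 21.6, 19.1 and 55.1 CPM in IRI and 57.9, 49.6 and 51.2 CPM in congested IRI, and IRI replicate 3 lay among the congested libraries (log2 fold change 0.73, edgeR adjusted p = 0.935). Hnf4g had a log2 fold change of 0.53 (edgeR adjusted p = 0.935). Conjugation and phase I enzymes, which make many substrates of the pumps, had 5 of 21 above 0 and a median of -0.15. Gsta3, a glutathione transferase gene, was at -0.43 and the vitamin D enzyme gene Cyp27b1 at 1.34 (edgeR adjusted p = 0.935 for both). Cyp27b1 stood at 15.3, 3.76 and 1.77 CPM in IRI and 44.1, 6.45 and 2.51 CPM in congested IRI. Congested replicate 1 was thus its highest library, and it was called for the replicate number (edgeR adjusted p = 0.00262). For the replicate number the calls were 2 of 10 partner genes, 9 of 20 other transporters, 2 of 15 transcription factors and 9 of 21 enzymes, beside 7.94% of all genes. Other transporters were thus called more often than the background, as the 42 members were, but no test compared these shares.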

How the data were processed

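Renal cortex RNA of 6 libraries, 3 per group, was prepared with a strand-marking mRNA kit, per the labels' protocols. The authors deposited raw counts per gene, whole numbers in every column. The submitters' processing notes name STAR 2.7.10a, featureCounts, Subread and GRCm38. Which annotation, strand setting and multimapping rule were used is not given in the sources used here. Symbols standing on 2 features (20 symbols) were kept apart; none is a member.

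Genes with at least 10 counts in at least 3 libraries (14398) were fitted with edgeR 4.0.16 in R 4.3.3 (TMM factors, robust quasi-likelihood F test, Benjamini-Hochberg adjustment over all genes, threshold 0.05), with group alone or group plus a block for replicate number. Standard errors are the log2 fold change divided by the square root of F, and 95% intervals use the fit's degrees of freedom. Pair differences use log2 CPM with a prior count of 2. limma 3.58.1 (limma-voom) and DESeq2 1.42.0 were alternatives. Coordinates, exon lengths and 50-base words came from GENCODE M21 (GRCm38), which matched 49 of 50 members. The scripts were tested on simulated data, and chi-square per degree of freedom between libraries of a group was 18.7 to 192, more than sampling noise.

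Deviations from the group means correlated at 0.719, 0.342 and 0.427 between libraries numbered 1, 2 and 3, each above 0.1, so the numbers were taken as pairs; the labels state no such link. Between unequal numbers, IRI replicate 2 and congested replicate 3 correlated at 0.395, and IRI replicate 3 and congested replicate 2 at 0.242. IRI replicate 2 thus correlated more with congested replicate 3 than with congested replicate 2 (0.342). These values set number 1 apart but do not tell numbers 2 and 3 from each other, so pairs 2 and 3 rest on the labels' numbers alone. Members and lists were chosen with earlier results of these data known. Genes were named by level within the family, smallest p for congestion in each direction with and without the block, smallest p for the replicate number, and any call; of each other list, the smallest p-values for congestion. Some genes, 1 member among them, are not reported here; counts over members include it, and figures that name genes leave it out.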

Additional observations from a re-analysis of the deposited data

How the results depend on the processing

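With RLE size factors, total counts, other filters, DESeq2, limma-voom or the edgeR replicate block, no member was called for congestion; DESeq2 with the block called 8 other genes. The edgeR replicate block changed no call. With total-count scaling the log2 fold change was 0.021 for Slc22a6, 0.068 for Slc22a8, 0.014 for Slc22a28, 0.042 for Slco3a1 and 0.017 for Abcg2, each opposite in sign to the reported value, and by limma-voom it was 0.25 for Slco4c1. The cause was not tested. The replicate number called 3231 genes without a filter and 1854 by the DESeq2 likelihood ratio test, against 1143.

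Leaving out libraries in turn gave 15 to 29 of 42 members above 0 and a members' median of -0.22 to 0.16, with 0 members called for congestion. The replicate number then called 10 to 33 members and 845 to 7877 genes, an alternative chosen after seeing the data. Of the genes chosen to be named, those whose log2 fold change changed sign in these fits had the ranges that follow, and other members also changed sign: Abcc10 -0.064 to 0.65, Abcg2 -0.21 to 0.11, Slc22a13 -1.66 to 0.60, Slc22a19 -1.56 to 0.12, Slc22a2 -0.43 to 0.19, Slc22a22 -0.58 to 0.32, Slc22a28 -0.46 to 0.33, Slc22a30 -0.37 to 0.19, Slc22a6 -0.27 to 0.14, Slc22a8 -0.35 to 0.36, Slco1a6 -0.0014 to 0.29, Slco3a1 -0.15 to 0.077, Slco4c1 -2.24 to 1.22. In the replicate block fit, leaving out both libraries of a number left 4 libraries and 1 residual degree of freedom. Without replicate 1 it called 10 genes and gave 0.071 for Slc22a6, 0.070 for Slc22a8 and 0.028 for Abcg2. Without replicate 2 it called 9 genes. Without replicate 3 it called 5487 genes and 15 members and gave 0.0093 for Slc22a30, 0.55 for Slco4c1 and 0.074 for Slc22a22. With 3 libraries a group and a biological coefficient of variation of 0.338, or 0.211 with the block, the 95% interval of every tested member in the fit without the block includes 0.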
